A study of Mus musculus with 83 samples.

Results

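The 8 genes described here carry corticosteroid signals in the colon, with one estrogen receptor beside them. They are the glucocorticoid receptor Nr3c1, the mineralocorticoid receptor Nr3c2, the enzymes Hsd11b1 and Hsd11b2, the hormone-induced genes Fkbp5, Tsc22d3 and Sgk1, and the estrogen receptor Esr1. They were chosen by name, as 8 of the 37764 genes in the count table, and all 8 passed the filter on low counts that left 18325 genes for testing. Bulk RNA was sequenced from the proximal colon of 83 male C57BL/6J/Ukj mice aged 3 months (mo, n = 16), 9 mo (n = 16), 15 mo (n = 16), 24 mo (n = 17) and 28 mo (n = 18). By their labels the groups differed in age only, and no treatment or genetic change is given for any of them. Each mouse gave 1 library, prepared in 1 of 3 batches that each held mice of every age. Females were not part of the study, and a piece of colon holds epithelium, muscle and immune cells together, so fewer cells of a type and less RNA per cell cannot be told apart.

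Corticosteroids act through 2 nuclear receptors. The glucocorticoid receptor is found in most cells and the mineralocorticoid receptor mainly in salt-transporting epithelia such as the colon, where aldosterone promotes the uptake of sodium. Because the mineralocorticoid receptor also binds glucocorticoids, cells that respond to aldosterone carry the enzyme encoded by Hsd11b2, which inactivates glucocorticoids, whereas the enzyme encoded by Hsd11b1 makes the active hormone from its inactive form. Fkbp5, a co-chaperone that lowers the hormone affinity of the glucocorticoid receptor, Tsc22d3, which encodes the anti-inflammatory protein GILZ, and Sgk1, a kinase that keeps the epithelial sodium channel in the membrane, are widely used readouts of receptor activity.

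In the GRCm38 annotation all 8 are protein-coding genes. Nr3c1 (ENSMUSG00000024431) is on chromosome 18. Nr3c2 (ENSMUSG00000031618) covers 76899442 to 77245012 of chromosome 8, and Hsd11b2 (ENSMUSG00000031891) covers 105518755 to 105523988 of the same chromosome. Hsd11b1 (ENSMUSG00000016194) lies on chromosome 1 from 193221634 to 193264075, Fkbp5 (ENSMUSG00000024222) on chromosome 17 from 28399094 to 28517527 and Tsc22d3 (ENSMUSG00000031431) on chromosome X from 140539528 to 140600659. Sgk1 (ENSMUSG00000019970, 21882184 to 21999903) and Esr1 (ENSMUSG00000019768, 4611593 to 5005614) are both on chromosome 10. Counts in these rows cover the whole gene, and its exons and transcripts were not separated.

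Total counts per mouse ranged from 23026370 to 75838290 with a median of 35495123. The member with the fewest counts, Esr1, had between 105 and 719 in a mouse, and Sgk1 between 2807 and 25305. The 6 epithelial markers summed to between 5880 and 11400 CPM (the count divided by the normalized library size, on the usual fixed scale) in every mouse, and the 5 smooth muscle markers to between 674 and 4470 CPM. Of the markers of adrenal, testis or prostate tissue, Cyp11b2 had 0 counts in 82 of the 83 mice and Cyp17a1 in 48. The 3 libraries least like the others were 28 mo mouse 13 and 3 mo mice 10 and 16, and the last 2 are named again below.

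Per unit of transcript length, Hsd11b2 was the most abundant of the 8 genes. Its level was 347 ± 86.2 TPM (counts divided by merged exon length and scaled to 1 common sum per mouse, SD, n = 83), above 98% of the tested genes. Sgk1 followed with 142 ± 43.0 TPM, then Fkbp5 with 57.2 ± 15.7, Nr3c1 with 56.2 ± 6.13 and Nr3c2 with 55.9 ± 6.83 TPM (SD, n = 83). The means of these last 3 lay closer together than the SD of any of them. Tsc22d3 stood at 35.0 ± 6.73 TPM, Hsd11b1 at 5.84 ± 1.22 and Esr1 at 1.24 ± 0.311 TPM, the last above 17.3% of the tested genes. Transcripts of both receptors were thus present at nearly the same level in the tissue, with a median Nr3c1 to Nr3c2 ratio in TPM between 0.962 and 1.04 over the 5 ages. Transcripts of the inactivating enzyme exceeded those of the activating one in each mouse, with the lowest Hsd11b2 to Hsd11b1 ratio in TPM at 28.7. Protein was not measured.

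**Figure D1:**
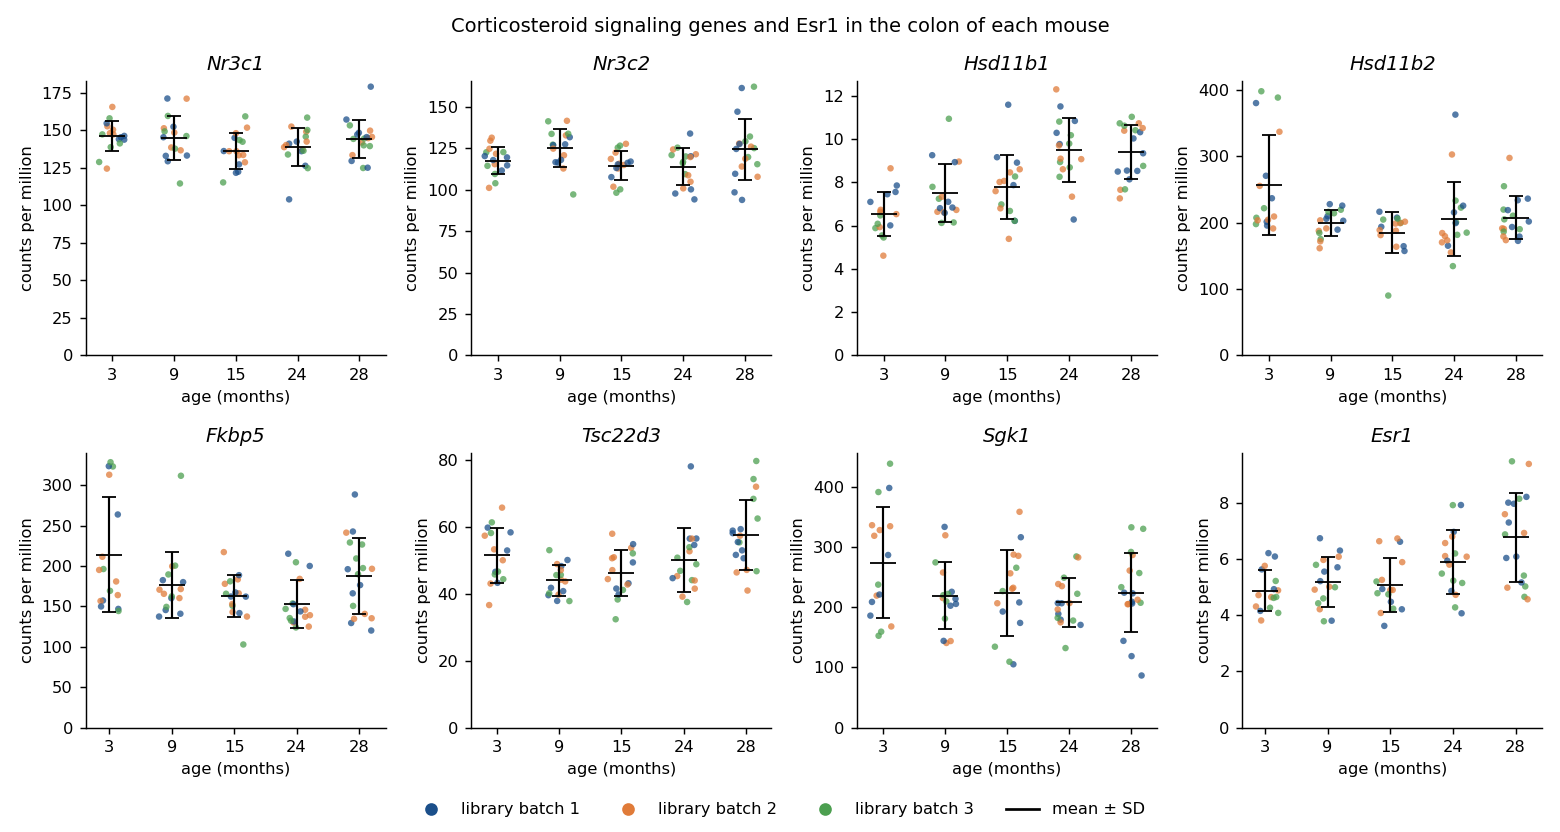
Level of each of the 8 genes in CPM (vertical axis, from 0) in each mouse (points, colored by library batch) by age in months (horizontal axis), with the mean and SD of each age in black. Hsd11b1 and Esr1 stood higher at 28 than at 3 months, and 4 of the 3-month points stand above the other 12 of that age in Hsd11b2 and Fkbp5.

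Over all 5 ages, 6 of the 8 genes passed the threshold of 0.1 on the adjusted p (quasi-likelihood F-test of edgeR, Benjamini-Hochberg adjustment over the 18325 genes, age and library batch both fitted). The threshold passed 54.9% of all tested genes in the same comparison, so 6 of 8 is little above the background. The 6 were Hsd11b1 (adjusted p = 2.49e-08), Esr1 (3.01e-05), Tsc22d3 (0.000243), Hsd11b2 (0.00105), Fkbp5 (0.00269) and Nr3c2 (0.0330). Hsd11b2 lost this call without the 4 high 3 mo mice described below (adjusted p = 0.239 by edgeR). Tsc22d3 (0.125) and Nr3c2 (0.231) lost it with clock gene components as covariates, and Fkbp5 (0.104) with epithelium and smooth muscle scores. Each of these was lost in 1 of 9 alternatives. Sgk1 (adjusted p = 0.111) and Nr3c1 (0.156) did not pass. Nr3c1 passed without the 3 libraries least like the others (adjusted p = 0.0831), and Sgk1 with the clock gene components (0.0461, both by edgeR). The higher powers of age were then tested together, to ask which genes did not follow a straight line, and 4 of the 8 genes passed, Tsc22d3 (adjusted p = 0.00849), Hsd11b2 (0.0163), Fkbp5 (0.0328) and Nr3c2 (0.0547), against 16.2% of all tested genes. Hsd11b1 (adjusted p = 0.607) and Esr1 (0.356) differed between ages without passing that test. In the same test, the calls of Hsd11b2 (adjusted p = 0.267) and Fkbp5 (0.103) were lost without the 4 high 3 mo mice. Fkbp5 was also lost with epithelium and smooth muscle scores (0.109). With the clock gene components all 4 calls were lost (adjusted p from 0.183 to 0.902, by edgeR).

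Between neighboring ages, 2 of the 8 genes differed between 3 and 9 mo, Hsd11b2 and Tsc22d3, beside 8.69% of all tested genes. Between 9 and 15 mo, 0 of the 8 passed in edgeR's test and 0 in DESeq2, beside 0.431% of all tested genes, and the unadjusted p was below 0.05 for 2, Nr3c1 and Nr3c2, and for 1683 of all tested genes. Between 15 and 24 mo, Hsd11b1 alone of the 8 passed, beside 13.5% of all tested genes. Between 24 and 28 mo, 3 of the 8 (Nr3c2, Fkbp5 and Tsc22d3) were higher at 28 mo, beside 11.7% of all genes called in either direction, 5.66% higher and 6.01% lower. Between 3 and 28 mo, 3 genes were higher (Hsd11b1, Esr1 and Tsc22d3) and 2 lower (Hsd11b2 and Sgk1) at 28 mo, beside 49.4% of all tested genes in either direction, 23.5% higher and 25.9% lower. Beside the rises between 24 and 28 mo, 5 of 5 B cell, 2 of 4 plasma cell and 2 of 5 fibroblast markers were called lower at 28 mo, and 0 markers of the other cell types were called. The summed B cell level ranged from 9.94 to 66.2 CPM at 24 mo and from 6.73 to 29.1 CPM at 28 mo, the plasma cell level from 709 to 2310 and from 554 to 1680 CPM, and the fibroblast level from 586 to 1220 and from 560 to 1170 CPM. The part of these markers in the rises was not tested. The values of the mice overlapped between the ages in each comparison of 2 ages and for each of the 8 genes.

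**Figure D2:**
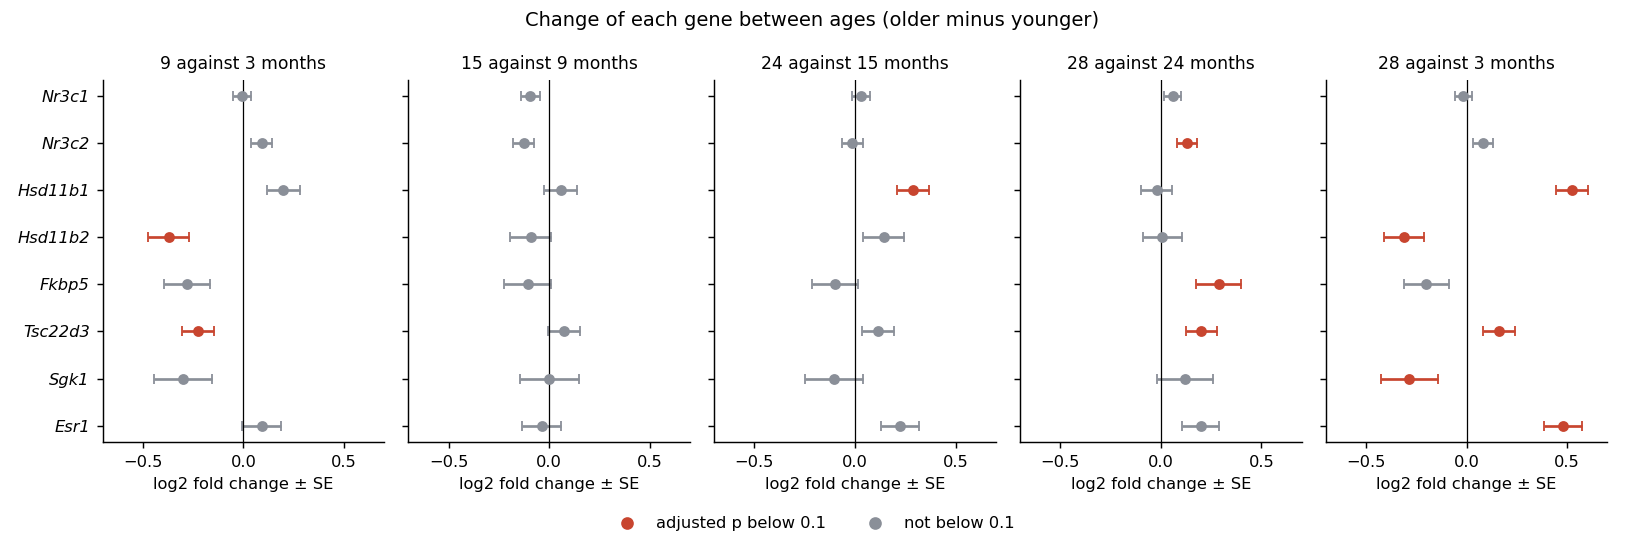
Log2 fold change (horizontal axis, older minus younger age) with its standard error for each of the 8 genes (rows) in 5 comparisons of 2 ages (panels), red where the adjusted p-value was below 0.1. Hsd11b1 and Esr1 lie on the right between 3 and 28 months, Hsd11b2 and Sgk1 on the left, and both receptors lie near 0.

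Of the receptors, Nr3c1 had nearly the same level at each age. It ranged from 125 to 166 CPM at 3 mo (median 147), from 115 to 171 at 9 mo (median 146) and from 115 to 159 at 15 mo (median 136). It ranged from 104 to 159 CPM at 24 mo (median 140) and from 125 to 179 at 28 mo (median 145). No age stood apart from the others. Its log2 fold change between 3 and 28 mo was -0.02 (standard error, SE, 0.04, adjusted p = 0.804 by edgeR) with a 95% interval from -0.10 to 0.07.

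Nr3c2 followed a shallow course with higher means at 9 and 28 mo. It ranged from 101 to 132 CPM at 3 mo (median 119), from 97.2 to 142 at 9 mo (median 127) and from 98.3 to 128 at 15 mo (median 116). At 24 mo it ranged from 94.3 to 134 CPM (median 117) and at 28 mo from 93.9 to 162 (median 125). The 28 mo mice held both the lowest and the highest value of the series. Between 24 and 28 mo Nr3c2 rose by a log2 fold change of 0.13 (SE 0.05, adjusted p = 0.0902 by edgeR), with 12 of the 18 mice aged 28 mo above the 24 mo median and differences of 0.16, 0.07 and 0.14 within the 3 batches. The call rested on a p-value near the threshold and was lost in 6 of 10 alternatives, over which the adjusted p ranged from 0.0767 to 0.960.

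Across the 83 mice the receptors went together. With the means of age and batch removed, log2 CPM of Nr3c1 and Nr3c2 correlated with Pearson's r = 0.626 (adjusted permutation p = 7e-05, with 1e-05 the smallest raw p that 100000 resamples can give) and Spearman's rho = 0.604 (adjusted permutation p = 7e-05), the adjustment covering the 28 pairs of the 8 genes. Without the 2 mice farthest from the median of Nr3c1, r was 0.569, and within the batches it was 0.626, 0.686 and 0.671. The genes most like Nr3c1 over the 83 mice were Pkn2 (r = 0.809), Ankib1 (0.803) and Fgd4 (0.801), and those most like Nr3c2 were Erbb3 (0.759), a receptor of the epidermal growth factor receptor family, Dennd1b (0.755) and Erbin (0.752). Tssc4 was the gene with the lowest r with both receptors (-0.729 with Nr3c1 and -0.719 with Nr3c2). Values from the same library share its depth and tissue makeup.

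Of the enzymes, Hsd11b1 rose with age. At 3 mo it ranged from 4.61 to 8.65 CPM (median 6.50), at 9 mo from 6.13 to 10.9 (median 6.97) and at 15 mo from 5.39 to 11.6 (median 7.95). At 24 mo it ranged from 6.28 to 12.3 CPM (median 9.71) and at 28 mo from 7.26 to 11.03 (median 9.69). All 18 mice aged 28 mo lay above the 3 mo median. The mean rose from 6.53 ± 1.02 CPM at 3 mo (SD, n = 16) to 9.40 ± 1.26 CPM at 28 mo (SD, n = 18), a log2 fold change of 0.52 (SE 0.08, adjusted p = 1.53e-07 by edgeR), with 0.33, 0.52 and 0.73 within the 3 batches. Of the neighboring ages, only 15 and 24 mo differed past the threshold, and the test for a departure from a straight line did not pass (adjusted p = 0.607 by edgeR). Between 15 and 24 mo the log2 fold change was 0.29 (SE 0.08, adjusted p = 0.0173 by edgeR), and 15 of 17 mice lay above the 15 mo median. Between 3 and 9 mo it was 0.20 (SE 0.08, adjusted p = 0.155 by edgeR), with 14 of 16 mice above the 3 mo median. Between 9 and 15 mo it was 0.06 (SE 0.08, adjusted p = 0.889 by edgeR). Between 24 and 28 mo it was -0.02 (95% interval -0.17 to 0.13). Hsd11b1 kept its calls between 3 and 28 mo and between 15 and 24 mo under all 10 alternatives.

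The rise of Hsd11b1 between 15 and 24 mo came at an interval in which other tissue markers moved. All 5 endothelial markers and 4 of 5 macrophage markers were called higher at 24 than at 15 mo, beside 13.5% of all tested genes called in either direction. The endothelial sum went from 71.5 to 126 CPM at 15 mo (median 106) to 104 to 132 CPM at 24 mo (median 124), and the macrophage sum from 126 to 202 CPM (median 152) to 139 to 236 CPM (median 184). Of 5 fibroblast markers 1 was called higher, and the fibroblast sum ranged from 504 to 1150 CPM (median 893) at 15 mo and from 586 to 1220 CPM (median 1020) at 24 mo. In other lists, 1 of 4 adipocyte and 1 of 4 enteric glial markers were called higher, and 1 of 4 plasma cell markers lower. The adipocyte sum ranged from 10.8 to 115 CPM (median 43.2) at 15 mo and from 12.8 to 314 CPM (median 55.9) at 24 mo. No marker of these lists was at 0 in every mouse of an age, and their part in the rise was not tested. With epithelium and smooth muscle scores as covariates, the log2 fold change of Hsd11b1 was 0.26 (adjusted p = 0.0243 by edgeR). Over the 83 mice, the genes most like Hsd11b1 were Igf1 (r = 0.702), an insulin-like growth factor, Efemp1 (0.660), a protein of the extracellular matrix, and Pros1 (0.640), the anticoagulant protein S.

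Hsd11b2 was lower at 9 and at 28 mo than at 3 mo, and no neighboring pair of ages after 9 mo differed past the threshold. At 3 mo it ranged from 191 to 398 CPM (median 215), at 9 mo from 161 to 228 (median 203) and at 15 mo from 90.2 to 216 (median 196). Its range at 24 mo was from 135 to 363 CPM (median 185) and at 28 mo from 173 to 297 (median 198). The medians lay close together, and the 3 mo range reached far above that at 9 mo. The mean was 256 ± 75.5 CPM at 3 mo (SD, n = 16), 199 ± 19.8 at 9 mo (SD, n = 16) and 207 ± 32.2 at 28 mo (SD, n = 18). Hsd11b2 fell between 3 and 9 mo, with a log2 fold change of -0.37 (SE 0.10, adjusted p = 0.0211 by edgeR), with 12 of 16 mice aged 9 mo under the 3 mo median, and was 0.31 lower at 28 than at 3 mo (log2 fold change -0.31, SE 0.10, adjusted p = 0.00757). Within the batches the first difference was -0.25, -0.33 and -0.42 and the second -0.29, -0.18 and -0.36. In order of mean level, 3 mo came first, followed by 28, 24, 9 and 15 mo. The means at these 4 later ages, from 185 ± 30.5 CPM at 15 mo (SD, n = 16) to 207 at 28 mo, differed by less than 1 SD of the 28 mo mice.

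The 4 highest 3 mo values of Hsd11b2 stood apart from the rest. Mice 10, 16, 15 and 13 had 398, 388, 380 and 337 CPM, and the other 12 mice of that age lay between 191 and 271 CPM. The same 4 mice held the highest 3 mo values of Fkbp5, between 313 and 329 CPM beside 144 to 264 in the other 12. Their Tsc22d3 lay between 53.2 and 61.3 CPM and their Sgk1 between 329 and 439 CPM, ranges that overlapped the other 12. The summed level of 14 receptor chaperones and coregulators was 7653, 8677, 5132 and 6083 CPM in these 4 mice and 3158 to 5200.0 CPM in the other 12. The smooth muscle sum was 694 and 674 CPM in mice 10 and 16 and 2905 and 2947 CPM in mice 15 and 13, within or below the range of 1018 to 4262 CPM in the other 12. The part of these differences in the Hsd11b2 values was not tested. Without the 4 mice, which were picked for their high values, the log2 fold change of Hsd11b2 was -0.12 between 3 and 9 mo (adjusted p = 0.751) and -0.05 between 3 and 28 mo (adjusted p = 0.691 by edgeR). Without the 3 mice least like the others, picked over all genes, it was -0.24 (adjusted p = 0.199) and -0.16 (adjusted p = 0.181), and both calls were lost.

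The ratio of Hsd11b2 to Hsd11b1 in TPM moved with both enzymes. It ranged from 55.9 to 169 at 3 mo (median 82.6), from 45.7 to 82.5 at 9 mo (median 63.8) and from 31.4 to 85.1 at 15 mo (median 55.1). At 24 mo it ranged from 28.7 to 133 (median 46.9) and at 28 mo from 38.1 to 94.6 (median 49.6). The ratios are given as a description, without a test. The genes most like Hsd11b2 over the 83 mice were Best2 (r = 0.755), an anion channel of colonic goblet cells, Pllp (0.681) and Cant1 (0.676).

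The hormone-induced genes had promoter sequences that can be set beside their values. RefSeq windows of 300 bases, from 250 before to 50 after each annotated start (GRCm38.p6), were found for 6 of the 8 genes, 14 windows in all, of which 6 belong to Sgk1, 3 to Tsc22d3 and 2 to Esr1. The palindrome GNACANNNTGTNC, the core of the sequence that the glucocorticoid and mineralocorticoid receptors bind, was searched on both strands and found in 1 of the 14 windows, a start of Sgk1, and in 0.475% of all 32851 windows. The element CACGTG, an E-box to which the clock proteins CLOCK and BMAL1 bind, was found in that same window and in the Fkbp5 window, and in 7.15% of all windows. Both windows are shown because they are the member windows with either element, in capitals, 5′ to 3′ along the gene.
Sgk1, chr10:21993640-21993939, plus strand: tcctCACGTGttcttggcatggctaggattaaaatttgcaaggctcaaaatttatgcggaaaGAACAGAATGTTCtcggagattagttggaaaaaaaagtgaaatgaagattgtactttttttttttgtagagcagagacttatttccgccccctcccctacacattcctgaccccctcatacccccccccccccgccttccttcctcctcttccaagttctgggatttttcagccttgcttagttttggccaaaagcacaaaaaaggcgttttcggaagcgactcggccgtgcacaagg
Fkbp5, chr17:28486100-28486399, minus strand: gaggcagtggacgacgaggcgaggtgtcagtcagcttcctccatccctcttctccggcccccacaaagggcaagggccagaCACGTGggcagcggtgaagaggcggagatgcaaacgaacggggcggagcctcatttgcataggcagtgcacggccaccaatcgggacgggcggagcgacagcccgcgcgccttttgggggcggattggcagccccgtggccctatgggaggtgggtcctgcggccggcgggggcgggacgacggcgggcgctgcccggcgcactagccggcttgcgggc
In Sgk1 the palindrome begins at position -188 and the E-box at -246 relative to the annotated start, and in Fkbp5 the E-box begins at -169. The hexamer AGAACA, one arm of the receptor's site, was found in 4 of the 14 windows and in 19% of all windows. In the Sgk1 window shown it occurred 3 times, 2 of them overlapping the palindrome. The estrogen response palindrome GGTCANNNTGACC was found in 0 of the 14 windows and in 0.070% of all windows. A match is a description of the letters and no evidence of binding in these mice.

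Fkbp5 had its lowest mean at 24 mo, and the mean at 3 mo included the 4 high mice. At 3 mo it ranged from 144 to 329 CPM (median 188), at 9 mo from 138 to 312 (median 168) and at 15 mo from 103 to 217 (median 164). The 24 mo mice ranged from 124 to 215 CPM (median 144) and at 28 mo from 120 to 289 (median 193). The ages overlapped widely, and the lowest value of the series belonged to 15 mo mouse 16, which also had the lowest Hsd11b2 and Tsc22d3. Fkbp5 rose between 24 and 28 mo with 153 ± 29.3 CPM before (SD, n = 17) and 187 ± 47.2 CPM after (SD, n = 18), a log2 fold change of 0.29 (SE 0.11, adjusted p = 0.0987 by edgeR), with 0.13, 0.21 and 0.43 within the batches. It was -0.28 between 3 and 9 mo (SE 0.12, adjusted p = 0.149) and -0.20 between 3 and 28 mo (adjusted p = 0.148), which did not pass. Without the 4 high mice the difference between 3 and 28 mo turned to 0.07 (adjusted p = 0.632 by edgeR). The rise at 28 mo lay just inside the threshold and was lost in 5 of 10 alternatives, over which the adjusted p ranged from 0.0446 to 0.988.

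Tsc22d3 had its lowest mean at 9 mo and its highest at 28 mo. It ranged from 36.6 to 65.7 CPM at 3 mo (median 51.4), from 37.8 to 53.0 at 9 mo (median 43.9) and from 32.3 to 57.9 at 15 mo (median 45.7). At 24 mo it ranged from 37.5 to 78.0 CPM (median 48.8) and at 28 mo from 40.9 to 79.6 (median 56.4). Of the 16 mice aged 9 mo, 15 lay under the 3 mo median. The fall between 3 and 9 mo was 0.23 (log2 fold change -0.23, SE 0.08, adjusted p = 0.0813 by edgeR). The rise between 24 and 28 mo was 0.20 (SE 0.08, adjusted p = 0.0916 by edgeR), the mean going from 50.04 ± 9.47 CPM at 24 mo (SD, n = 17) to 57.6 ± 10.5 CPM at 28 mo (SD, n = 18). Within the batches this rise was -0.05, 0.17 and 0.44, so that batch 1 did not share it. Between 3 and 28 mo Tsc22d3 rose by 0.16 (SE 0.08, adjusted p = 0.0874). Each of these 3 calls lay near the threshold. The first was lost in 5 of 10 alternatives (adjusted p from 0.0814 to 0.573, the highest without the 4 high 3 mo mice), the second in 4 (0.0682 to 0.879) and the third in 4 (0.0234 to 0.575), by edgeR or DESeq2.

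Sgk1 had the widest spread of the 8 genes, with a coefficient of variation of 30.1% over the 83 mice beside 8.94% for Nr3c1. It ranged from 153 to 439 CPM at 3 mo (median 263), from 141 to 334 at 9 mo (median 215) and from 105 to 359 at 15 mo (median 229). The 24 mo mice lay between 132 and 285 CPM (median 207) and the 28 mo mice between 86.6 and 333 (median 218). Sgk1 was lower at 28 than at 3 mo, with a log2 fold change of -0.28 (SE 0.14, adjusted p = 0.0949 by edgeR) and 14 of 18 mice under the 3 mo median. Within the batches the difference was -0.61, -0.25 and 0.11, so that batch 3 went the other way. Without the 4 high 3 mo mice, at 329 to 439 CPM, the log2 fold change was -0.04 (adjusted p = 0.860 by edgeR). The call was lost in 8 of 10 alternatives, over which the adjusted p ranged from 0.0947 to 0.860.

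The hormone-induced genes and Hsd11b2 correlated positively over the 83 mice. Of the 28 pairs of the 8 genes, 11 correlated at an adjusted permutation p of Pearson's r below 0.1 (n = 83, age and batch means removed), 7 positively and 4 negatively. Hsd11b2 correlated with Fkbp5 (r = 0.669, rho = 0.598, adjusted permutation p = 7e-05 for both), with Tsc22d3 (r = 0.581, rho = 0.517, adjusted permutation p = 7e-05 for both) and with Sgk1 (r = 0.497, rho = 0.472). Among the 3 induced genes r was 0.459 for Fkbp5 and Sgk1, 0.428 for Fkbp5 and Tsc22d3 and 0.413 for Tsc22d3 and Sgk1, with rho of 0.460, 0.425 and 0.415. The highest adjusted permutation p among these 4 pairs, Hsd11b2 and Sgk1 included, was 0.00044 for r and 0.00064 for rho. The 4 genes thus formed all 6 of their possible positive pairs. The share of such pairs among all tested genes was not computed, so these counts have no background beside them.

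**Figure D3:**
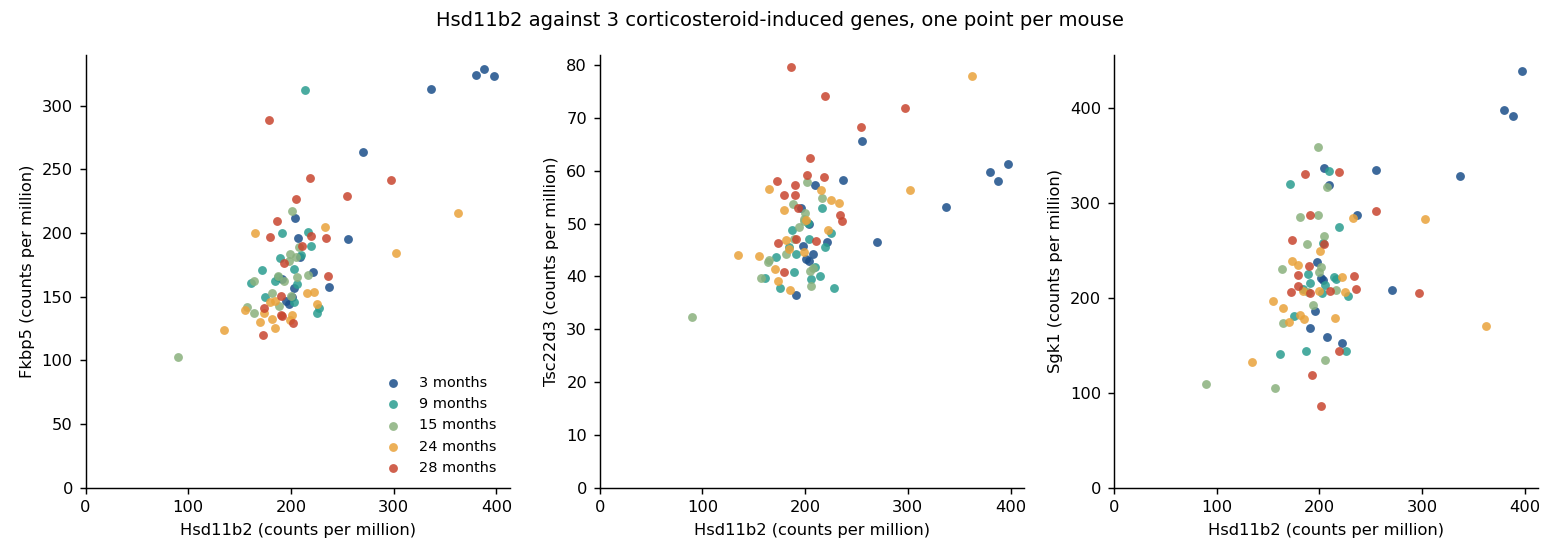
Hsd11b2 (horizontal axis) against Fkbp5, Tsc22d3 and Sgk1 (vertical axes of the 3 panels), all in CPM, with one point per mouse colored by age. At the top right of the Fkbp5 panel are 4 mice aged 3 months, and 15-month mouse 16 is at the bottom left with 90.2 and 103 CPM.

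The positive pairs were also present without the 3 mo mice. Over the 67 mice of the other ages r was 0.531 for Hsd11b2 and Fkbp5, 0.576 for Hsd11b2 and Tsc22d3 and 0.395 for Hsd11b2 and Sgk1. Within single ages, r for Hsd11b2 and Fkbp5 was 0.935 at 3 mo, 0.315 at 9 mo, 0.817 at 15 mo, 0.624 at 24 mo and 0.422 at 28 mo. With Sgk1 it was 0.791, 0.162, 0.631, 0.523 and -0.05 at these ages, and with Tsc22d3 it lay between 0.404 and 0.708. At 9 mo r was -0.11 for Fkbp5 and Tsc22d3 and -0.03 for Tsc22d3 and Sgk1, and at the other ages these pairs lay between 0.234 and 0.703 and between 0.172 and 0.729. For Fkbp5 and Sgk1 r lay between 0.198 and 0.688 within ages. Within the 3 batches, r was 0.473, 0.761 and 0.803 for Hsd11b2 and Fkbp5, and 0.499, 0.690 and 0.576 for Hsd11b2 and Tsc22d3. For Hsd11b2 and Sgk1 it was 0.274, 0.319 and 0.781. For Tsc22d3 and Sgk1 it was -0.02, 0.337 and 0.745, so that r was near 0 in batch 1. The 2 farthest mice left out, r was 0.627 for Hsd11b2 and Fkbp5, 0.485 for Hsd11b2 and Tsc22d3 and 0.483 for Hsd11b2 and Sgk1.

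Negative pairs were weaker. Fkbp5 and Esr1 had r = -0.330 (rho = -0.324, adjusted permutation p = 0.00756 for r). Within ages this r was 0.223 at 15 mo and lay between -0.613 and -0.252 at the others. Nr3c1 and Tsc22d3 had r = -0.310 (rho = -0.329, adjusted permutation p = 0.0132 for r), with r of -0.517, -0.548 and -0.595 at 3, 9 and 15 mo and of 0.02 and 0.01 at 24 and 28 mo. Hsd11b1 and Hsd11b2 had r = -0.266 (rho = -0.263, adjusted permutation p = 0.0423 for r). Within the 3 batches their r was -0.703, -0.201 and 0.02. Within ages it was 0.221 at 9 mo and between -0.569 and -0.0883 at the others. Nr3c2 and Hsd11b1 had r = -0.237 (adjusted permutation p = 0.0774), and their rho of -0.197 did not pass (adjusted permutation p = 0.171). The 3 genes most like Fkbp5 were Atp1b1 (r = 0.753), the beta subunit of the sodium pump, Dlg3 (0.731) and Tfcp2l1 (0.730). Those most like Tsc22d3 were Ddit4 (0.677), an inhibitor of mTOR signaling that glucocorticoids also induce, Per1 (0.589), a clock gene, and Hsd11b2 (0.581). Those most like Sgk1 were Fam102a (0.758), Zfp598 (0.698) and Slc30a1 (0.698), a zinc transporter.

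Most clock genes differed between 24 and 28 mo. Of 13 clock genes, 8 were called higher and 3 lower at 28 than at 24 mo, beside 5.66% higher and 6.01% lower among all tested genes. Their median log2 fold change was 0.82 beside -0.01 over all tested genes. The mean of Dbp went from 5.65 CPM at 24 mo (range 1.946 to 22.98) to 27.0 CPM at 28 mo (range 2.575 to 76.37). Ciart rose by 2.44 and Tef by 1.66 on the log2 scale. In single mice Ciart lay between 0.5283 and 2.856 CPM at 24 mo and between 0.5291 and 10.96 CPM at 28 mo. Some 28 mo mice thus kept the levels seen at 24 mo. Arntl, which encodes BMAL1, was chosen after its values were seen. It ranged from 38.6 to 60.7 CPM over the 65 mice of the 4 younger ages and from 10.1 to 55.3 CPM (median 36.2) at 28 mo. The time of day at which each mouse was killed was not used here, and its part in these values was not tested.

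Among the 18 mice aged 28 mo, Fkbp5 was higher where Arntl was lower. With batch means removed, r was -0.645 (permutation p = 0.00405, adjusted over the 8 genes 0.0324) and rho -0.664 (permutation p = 0.00354, adjusted 0.0283). Arntl was picked from the clock genes after its values were seen, and the adjustment does not cover that choice. Without the 2 mice farthest from the median of Arntl, r was -0.459. It was -0.501 in the 7 mice of batch 1 and -0.683 in the 6 of batch 3, and no value is given for batch 2, which held 5 mice at this age, fewer than the 6 taken as the least for a correlation. The other 7 genes did not pass, with r between -0.432 for Hsd11b2 (adjusted permutation p = 0.271) and 0.369 for Sgk1 (adjusted permutation p = 0.271). With the first 2 principal components of the clock genes as covariates, the log2 fold change between 24 and 28 mo was -0.03 for Fkbp5 (adjusted p = 0.988), 0.10 for Tsc22d3 (adjusted p = 0.879) and 0.04 for Nr3c2 (adjusted p = 0.960), each by edgeR, and 0 of the 8 genes passed. These components move with the age of 28 mo itself, and the same fit called 15 genes in all. With these covariates Fkbp5 was 0.47 lower at 28 than at 3 mo (log2 fold change -0.47, adjusted p = 0.00354).

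**Figure D4:**
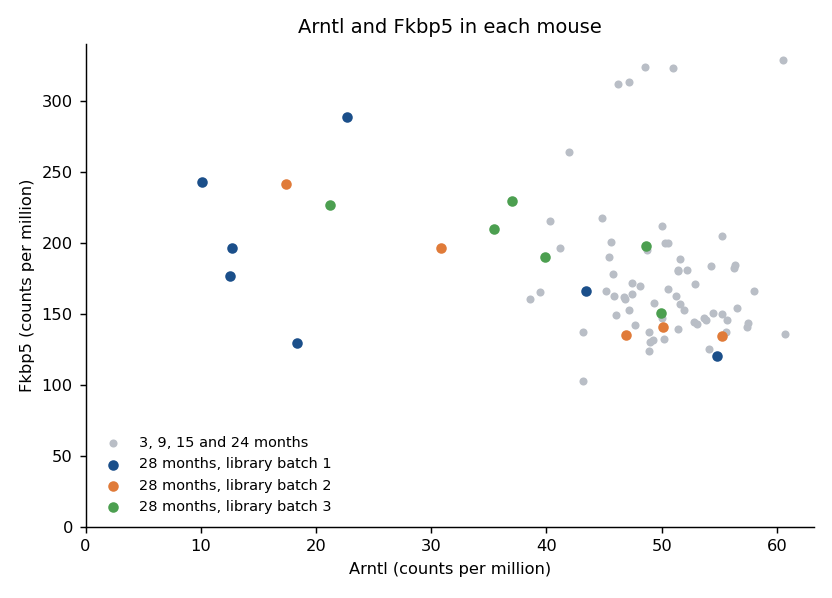
Arntl (horizontal axis) against Fkbp5 (vertical axis), both in CPM, with one point per mouse. The 18 mice aged 28 months, colored by library batch, spread from 10.1 to 55.3 along the Arntl axis, and the mice of the other ages (gray) lie between 38.6 and 60.7.

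Esr1 rose between 3 and 28 mo, at a low level. It ranged from 3.81 to 6.20 CPM at 3 mo (median 4.68), from 3.78 to 6.73 at 9 mo (median 5.11) and from 3.61 to 6.72 at 15 mo (median 4.89). At 24 mo it ranged from 4.06 to 7.91 CPM (median 5.93) and at 28 mo from 4.56 to 9.47 (median 6.89). The 2 highest values of the series, in 28 mo mice 6 and 5, were 9.47 and 9.37 CPM. The mean rose from 4.87 ± 0.725 CPM at 3 mo (SD, n = 16) to 6.76 ± 1.59 CPM at 28 mo (SD, n = 18), a log2 fold change of 0.48 (SE 0.09, adjusted p = 2.24e-05 by edgeR), with 0.36, 0.47 and 0.48 within the batches and 16 of 18 mice above the 3 mo median. None of the 4 neighboring pairs of ages passed by itself. The log2 fold change was 0.22 between 15 and 24 mo (adjusted p = 0.124) and 0.20 between 24 and 28 mo (adjusted p = 0.180). The call between 3 and 28 mo held in 10 of 10 alternatives. The genes most like Esr1 over the mice were Tbc1d8 (r = 0.579), Fam53c (0.578) and Grk3 (0.569).

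Among receptor chaperones and coregulators, the proteins that fold the receptors for hormone binding or carry their effect to chromatin, 8 of 14 genes were lower and 1 higher at 28 than at 3 mo, beside 25.9% lower and 23.5% higher among all tested genes. The 8 lower genes were the 8 chaperones and co-chaperones of the list, with log2 fold changes from -0.96 to -0.10. Of the 6 coregulators Ncoa2 was higher (0.14, adjusted p = 0.0137 by edgeR), and the other 5 lay between -0.04 and 0.05 and did not pass. The median of the 14 was -0.21 beside -0.01 over all tested genes. Hsp90aa1 fell from 370 to 188 CPM (log2 fold change -0.96, adjusted p = 2.67e-08), Hspa8 from 1660 to 959 CPM (-0.78, adjusted p = 5.01e-07) and Stip1, the co-chaperone between both, from 102 to 59.8 CPM (-0.77, adjusted p = 4.64e-09, each by edgeR). Without the 4 high 3 mo mice, which held high values of Hsp90aa1 and Hspa8, the log2 fold change was -0.53 for Hsp90aa1 (adjusted p = 9.4e-05), -0.38 for Hspa8 (0.00191) and -0.48 for Stip1 (6.48e-06, each by edgeR). In that fit 8 of the 14 were lower and 1 higher, beside 20.6% lower and 20.9% higher among all genes tested, with a median of -0.11. Between 3 and 9 mo 8 of the 14 were lower, beside 8.69% of all tested genes in either direction, and without those mice 0 were, beside 1.38% of all genes.

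Among 16 other glucocorticoid-induced genes, 7 were higher and 1 lower at 28 than at 3 mo, with a median log2 fold change of 0.15. Over all tested genes 49.4% were called, 23.5% higher and 25.9% lower. Without the 4 high 3 mo mice, 10 of the 16 were higher and 1 lower, beside 20.9% higher and 20.6% lower among all genes tested in that fit. The metallothionein genes Mt2 and Mt1, chosen after their values were seen, had log2 fold changes of 0.35 (adjusted p = 0.220) and 0.03 (0.887) with all mice and of 1.25 (adjusted p = 1.36e-07) and 0.42 (0.0170, each by edgeR) without the 4. Klf15, a regulator of metabolism, rose from 3.06 to 6.63 CPM (log2 fold change 1.10, adjusted p = 5.26e-12), Zbtb16 from 2.47 to 4.63 CPM (0.87, adjusted p = 0.000303) and Per1 from 28.8 to 47.3 CPM (0.70, adjusted p = 0.000727, each by edgeR). Between 24 and 28 mo 4 were higher and 0 lower, beside 5.66% and 6.01% of all tested genes. With the clock components as covariates, 3 were higher and 1 lower between 3 and 28 mo, beside 34.1% of all tested genes in either direction, and 0 passed between 24 and 28 mo, where 0.0819% of all tested genes did. Per1 is a clock gene as well as a glucocorticoid target.

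Of the genes of aldosterone-regulated sodium transport, 8 of 10 were tested, and 1 was higher and 2 lower at 28 than at 3 mo. The 3 called of 8 lie below the 49.4% of all tested genes, so the count shows nothing particular to these genes. Scnn1b, a subunit of the epithelial sodium channel, fell from 12.6 to 10.1 CPM (log2 fold change -0.33, adjusted p = 0.000974) and Atp1b1 from 1240 to 1050 CPM (-0.23, adjusted p = 7.17e-05), whereas the channel subunit Scnn1a rose from 117 to 128 CPM (0.12, adjusted p = 0.0754, each by edgeR). Without the 4 high 3 mo mice the fold change of Atp1b1 was -0.11 (adjusted p = 0.0465 by edgeR). The third channel subunit, Scnn1g, had at most 34 counts in a mouse and was not tested. Of the genes of local corticosteroid synthesis, 4 of 7 were tested. Por, which donates electrons to the P450 enzymes of the endoplasmic reticulum, rose by 0.20 (adjusted p = 0.00891) and Nr5a2, the nuclear receptor LRH-1 that drives intestinal steroid synthesis, fell by 0.13 on the log2 scale (adjusted p = 0.0174 by edgeR), whereas Cyp11a1, Cyp11b1 and Cyp21a1, enzymes of steroid synthesis, had at most 15, 1 and 2 counts in a mouse.

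Of the androgen and estrogen genes, 12 of 15 with a row were tested, and 4 were higher and 3 lower at 28 than at 3 mo, with a median log2 fold change of -0.09. The 7 called of 12 are close to the background of 49.4%, the share to set beside the counts of immediate early and Hox genes as well. Srd5a2, which makes dihydrotestosterone from testosterone, rose from 1.67 to 2.70 CPM (log2 fold change 0.71, adjusted p = 5.88e-06), Greb1, an estrogen-induced gene, from 13.8 to 17.9 CPM (0.38, adjusted p = 7.73e-06) and Esr2, the other estrogen receptor, from 0.593 to 0.761 CPM (0.35, adjusted p = 0.0431, each by edgeR). Aromatase, encoded by Cyp19a1, had at most 1 count in a mouse. Of 7 immediate early genes, which respond to handling within minutes, 1 was higher (Fosb, log2 fold change 0.42) and 1 lower (Egr1, -0.29) at 28 mo. Without the 4 high 3 mo mice the fold change of Egr1 was -0.28 (adjusted p = 0.117 by edgeR). Of 4 tested posterior Hox genes, which mark position along the gut, Hoxd13 (-0.82) and Hoxd11 (-0.22) were lower at 28 mo, and the summed level ranged from 25.7 to 77.3 CPM at 3 mo and from 19.5 to 65.8 CPM at 28 mo. The part of gut position in the results above was not tested.

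**Figure D5:**
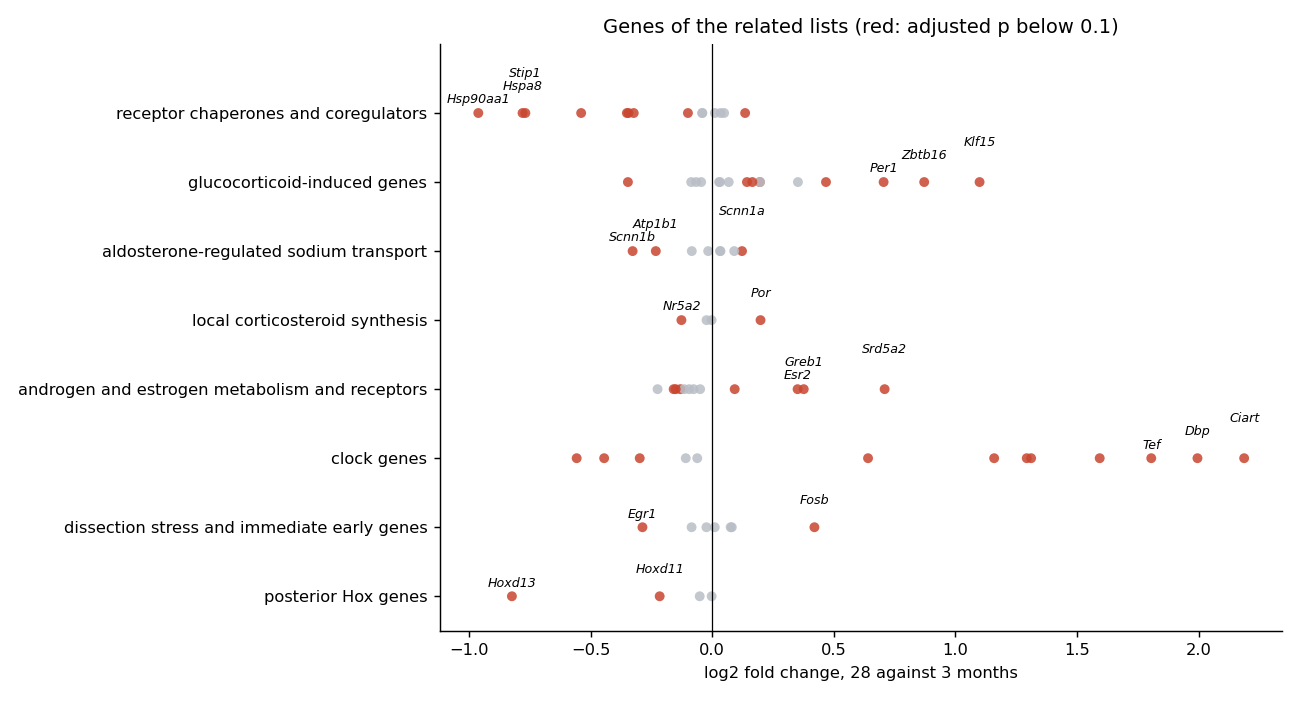
Log2 fold change between 3 and 28 months (horizontal axis) of the tested genes of 8 related lists (rows), one point per gene, red where the adjusted p-value was below 0.1, with up to 3 genes named per list. Chaperones lie to the left with Hsp90aa1 at -0.96, and most red points of the clock and glucocorticoid-induced lists lie to the right with Ciart at 2.19 and Klf15 at 1.10.

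Other cell types differed between 3 and 28 mo beside these genes. All 5 endothelial and 4 of 5 macrophage markers were higher at 28 mo, and 4 of 5 B cell markers and 2 of 6 epithelial markers were lower, beside 23.5% higher and 25.9% lower among all tested genes. The summed B cell level ranged from 7.44 to 85.8 CPM at 3 mo and from 6.73 to 29.1 CPM at 28 mo. Of the other lists, 0 of 5 smooth muscle and 0 of 4 enteric glial markers were called, 1 of 5 T cell and 1 of 4 adipocyte markers were higher, 1 of 4 plasma cell markers was lower, and 1 of 5 fibroblast markers was higher and 2 lower. Insl3, the only tested gene of the adrenal, testis and prostate list, was called higher (log2 fold change 0.39), and the annotation marks it as overlapping another gene. The part of these shifts in the results on the 8 genes was not tested. With epithelium and smooth muscle scores as covariates, Hsd11b1 and Esr1 stayed past the threshold between 3 and 28 mo (0.48, adjusted p = 1.14e-06, and 0.42, adjusted p = 0.000306, by edgeR), and Hsd11b2 did not (-0.15, adjusted p = 0.161).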

How the data were processed

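Strand-specific libraries were made from polyadenylated RNA. According to the methods and the labels, the authors trimmed reads with cutadapt 2.8 and a quality filter, aligned them to GRCm38 with HISAT2 2.1.0, kept unique alignments with SAMtools 1.9 and counted proper pairs by strand with featureCounts of Subread 2.0.1. The deposited counts are whole read pairs per gene and mouse, not normalized. Each mouse was 1 replicate, with its age taken from its label. Symbols and merged exon lengths came from an earlier Ensembl release than the authors', and 37652 of 37764 genes had a length. edgeR 4.0.16 in R 4.3.3 (filterByExpr by age, TMM, quasi-likelihood F-test, age and batch in 1 model, Benjamini-Hochberg, threshold 0.1 as in the study) tested 18325 genes. Correlations used log2 CPM (prior count 2) and two-sided permutation tests with 100000 resamples (scipy 1.17.1). Intervals are normal 95% intervals from the standard error. Named genes are the 8 members, up to 3 genes per list with the largest change between 3 and 28 months among those past the threshold, and the 3 genes most correlated with each member. Other names were chosen after their values were seen. Members and lists were chosen with earlier results of these data known. Alternatives were DESeq2 1.42.0, its size factors, no filter, no batch term, a replicate block, a threshold of 0.05, marker scores as covariates, only the 2 ages compared, a prior count of 0.5, and, chosen after seeing the data, clock components as covariates and mice left out.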

Additional observations from a re-analysis of the deposited data

How the results depend on the processing

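The number of the 8 genes called moved by more than 1.5 times in these fits. Between 3 and 9 months it went from 2 to 1 with no filter on low counts, with epithelium and smooth muscle scores as covariates or at an adjusted p below 0.05, and to 0 without the 3 mice least like the others, without the 4 high 3-month mice or with clock components. Between 15 and 24 months it went from 1 to 2, Esr1 being added, with the replicate block, with only the 2 ages compared or with clock components. Between 24 and 28 months it went from 3 to 1 with the marker scores, with only the 2 ages compared or without the 3 mice, and to 0 with no filter, with the replicate block, with clock components or at 0.05. Between 3 and 28 months it went from 5 to 3 with no filter, with the marker scores, with only the 2 ages, without the 3 or the 4 mice, or at 0.05. For the departure from a straight line it went from 4 to 2 without the 4 mice and to 0 with clock components. The cause was not tested.

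The number of all genes called moved as follows. Between 3 and 9 months, 1593 became 882 with no filter, 901 with only the 2 ages, 613 without the 3 mice, 255 without the 4 mice, 419 with clock components and 759 at 0.05. Between 9 and 15 months, 79 became 294 with the marker scores. Between 15 and 24 months, 2476 became 1524 with no filter and 1380 at 0.05. Between 24 and 28 months, 2139 became 15 with clock components and 1302 at 0.05. For the departure from a straight line, 2969 became 4662 with the marker scores, 971 with clock components and 1926 at 0.05. The other alternatives, DESeq2, its size factors and no batch term among them, stayed within 1.5 times. With clock components, the log2 fold change of Fkbp5 between 24 and 28 months turned to -0.0291 and that of Sgk1 between 3 and 28 months to 0.0866, neither past the threshold.

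Of the 28 pairs, 11 were called in all mice and 5, 6 and 7 in batches 1, 2 and 3 alone, which hold 28, 29 and 26 mice. The correlation of Hsd11b1 and Hsd11b2 turned to 0.0178 in batch 3 and that of Tsc22d3 and Sgk1 to -0.015 in batch 1.

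Mice of different ages share only a replicate number. Deviations from the age means correlated over 0.1 in 16.8% of the 161 pairs with the same number and in 17.0% of the 2593 others (median r 0.010 and -0.003), so the numbers do not pair the mice. With the replicate block, 5 of 40 calls on single genes in comparisons of 2 ages changed, those of Nr3c2, Fkbp5 and Tsc22d3 between 24 and 28 months, Tsc22d3 between 3 and 28 months and Esr1 between 15 and 24 months.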
